A study of Mus musculus with 50 samples.

Results

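The mitochondrial ribosomal protein genes encode the protein subunits of the ribosome inside mitochondria. The members are the protein-coding genes of the GENCODE vM21 annotation whose symbol begins with Mrpl or Mrps followed by a digit and which reached 1 CPM (counts of the gene scaled to a common library total) or more in 5 or more libraries. All 78 protein-coding genes with such a symbol passed, among 15012 protein-coding genes that passed the same filter and 21897 protein-coding genes in the annotation, and 5 genes of other types with such a symbol, pseudogenes included, were left out. By symbol 49 members belong to the large and 29 to the small subunit. With Mrps30 and Mrps18a placed in the large subunit, where their proteins sit, the numbers are 51 and 27, and this division is used from here on. Polyadenylated RNA of the frontal cortex was sequenced in 50 mice, 5 wild type (WT) and 5 with one inactivated copy of Setd1a (Setd1a+/-, labelled Het) per age, the ages being embryonic days E14 and E18 and postnatal days P7, P35 and P70, to ask how loss of one copy of this histone H3 lysine methyltransferase alters expression through development. The labels give the strain as C57BL/6NTac for both genotypes, while the paper's methods describe a mixed C57BL/6NTac and C57BL/6J background, male mice, a knockout-first tm1d allele, frontal brain regions rather than dissected cortex before birth, and RNA drawn from a homogenate shared with a synaptosome preparation. The methods also put both embryonic ages slightly later than the labels, which are used here. Each library holds 1 mouse, with 35507165 to 43907318 counts and a median of 38621490 in WT and 38680536 in Setd1a+/- libraries.

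Mitochondrial ribosomes translate the few messenger RNAs encoded by mitochondrial DNA, which specify core subunits of the respiratory chain and of ATP synthase. Their ribosomal RNAs come from mitochondrial DNA, whereas their proteins are encoded in the nucleus, made in the cytosol and imported, and they are either descendants of bacterial ribosomal protein families or additions specific to mitochondria. Neurons rely on oxidative phosphorylation, and inherited faults in several of these proteins cause encephalopathy and cardiomyopathy in people.

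Several libraries stood apart. WT E14 replicate 5 and WT E18 replicate 2 held 60159 and 55644 counts of Xist, a transcript of the inactive X chromosome, and 0 and 11 counts over 4 Y-linked genes, where the other 48 libraries held 4711 to 9768, although the paper describes male mice. WT P7 replicate 2 lay a median of 0.227 log2 units per gene from the other 4 WT libraries of P7, against a median of 0.0972 over all libraries. WT E14 replicate 5 lay 0.228, WT E14 replicate 2 0.197 and Setd1a+/- E14 replicate 2 0.186 log2 units from the rest of their groups. WT P7 replicate 2 also held more choroid plexus, hindbrain, astrocyte, progenitor and proliferation marker RNA and less neuron marker RNA than the other 4, with hindbrain markers summed at 8.01 CPM, astrocyte markers at 430.1, 848, 390.5, 398 and 418 CPM and proliferation markers at 107, 358, 115, 131.4 and 107 CPM in the 5 WT libraries of P7. At E14 the members moved together from mouse to mouse. Their CPM per kilobase of exon (RPKM), summed over the 78 members, were 1099, 980.4, 918, 1156 and 1169.8 in the 5 WT libraries and 1030.2, 915, 1086, 981 and 1147 in the 5 Setd1a+/- libraries. WT replicate 3 and Setd1a+/- replicate 2 were lowest, WT replicates 4 and 5 and Setd1a+/- replicate 5 were highest, and the genotypes overlapped throughout. The median member lay -0.22 and -0.20 log2 units from the rest of its group in the lowest libraries and 0.18 and 0.19 in WT replicate 5 and Setd1a+/- replicate 5. Such spread was not particular to the members. In WT mice the summed RPKM also varied most at E14 over nuclear genes of respiratory complex I (1124.9 ± 116, SD). The same held for cytosolic ribosomal protein genes (14403 ± 2143). Proliferation markers, summed over 7 genes with Top2a the most abundant, were at 1126, 850.5, 1186, 1283 and 1508 CPM in the same WT libraries and 1306, 1075, 971, 1274 and 1399.8 CPM in the Setd1a+/- libraries. Endothelial markers, summed over 3 genes with Cldn5 the most abundant, were at 68.6, 353, 67.7, 123 and 70.5 CPM in the Setd1a+/- libraries, highest in replicate 2, and at 69.6, 67.3, 74.2, 65.2 and 89.7 CPM in the WT libraries. The part of tissue composition in the E14 spread was not tested, and in bulk tissue fewer cells of a type and less RNA per cell cannot be told apart. The genotype results are also given without WT E14 replicate 5, WT E18 replicate 2 and WT P7 replicate 2, called the 3 libraries that stood apart, and, as a choice made after seeing the data, without the 10 E14 libraries.

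The members' median over all libraries was 11.3 RPKM, against 5.35 over the 16330 protein-coding genes tested, 108 over 80 cytosolic ribosomal protein genes and 36.6 over 36 nuclear genes of respiratory complex I. On this scale per length, as means over all libraries, the highest members were Mrpl34 with 44.8 RPKM, Mrpl41 with 33.5, Mrps21 with 33, Mrpl12 with 28.6 and Mrpl27 with 27.9. In WT mice Mrpl34 was highest at E14, and Mrpl41 and Mrps21 at P70. Ranks at single ages are not given and may differ. Mrpl12, Mrpl27, Mrpl34 and Mrps21 belong to bacterial families, Mrpl12 forms part of the stalk that recruits translation factors, and Mrpl41 is specific to mitochondria. The lowest were Mrps35 with 2.12 RPKM, Mrpl1 with 2.57, Mrpl33 with 2.66, Mrpl15 with 2.82 and Mrps10 with 2.97. Summed exon length enters these ranks. Mrps35, Mrpl33, Mrpl15, Mrps10 and Mrpl1 have 8631, 7326, 8487, 8079 and 4295 bases and Mrpl34 607, against a member median of 2394. Their mean counts per library were 716, 758, 934, 936 and 428, and 1067.5 for Mrpl34. Median lengths were 4261 bases over tested genes, 1805.5 over cytosolic ribosomal protein genes and 1532 over complex I genes. Large and small subunit members had medians of 11.4 and 11.2 RPKM, and the 46 members of bacterial families and the 32 specific to mitochondria 11.8 and 11 RPKM. The counts behind a member ran from a mean of 371 per library for Mrps28 to 6399 for Mrpl48. Within groups the members varied little, with a median residual SD of 0.103 log2 CPM against 0.155 over all tested genes, 0.114 over cytosolic ribosomal protein genes and 0.0993 over complex I genes. The largest among the members were 0.164 for Mrpl54, 0.157 for Mrps28 and 0.154 for Mrps36. Fragments were counted for each gene they overlapped, and in the annotation 17 members shared 10% or more of their exonic bases with another gene. They were led by Mrpl53 with 88%, Mrps34 with 77.8% and Mrps25 with 69.8%, names chosen after their values were seen.

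**Figure D1:**
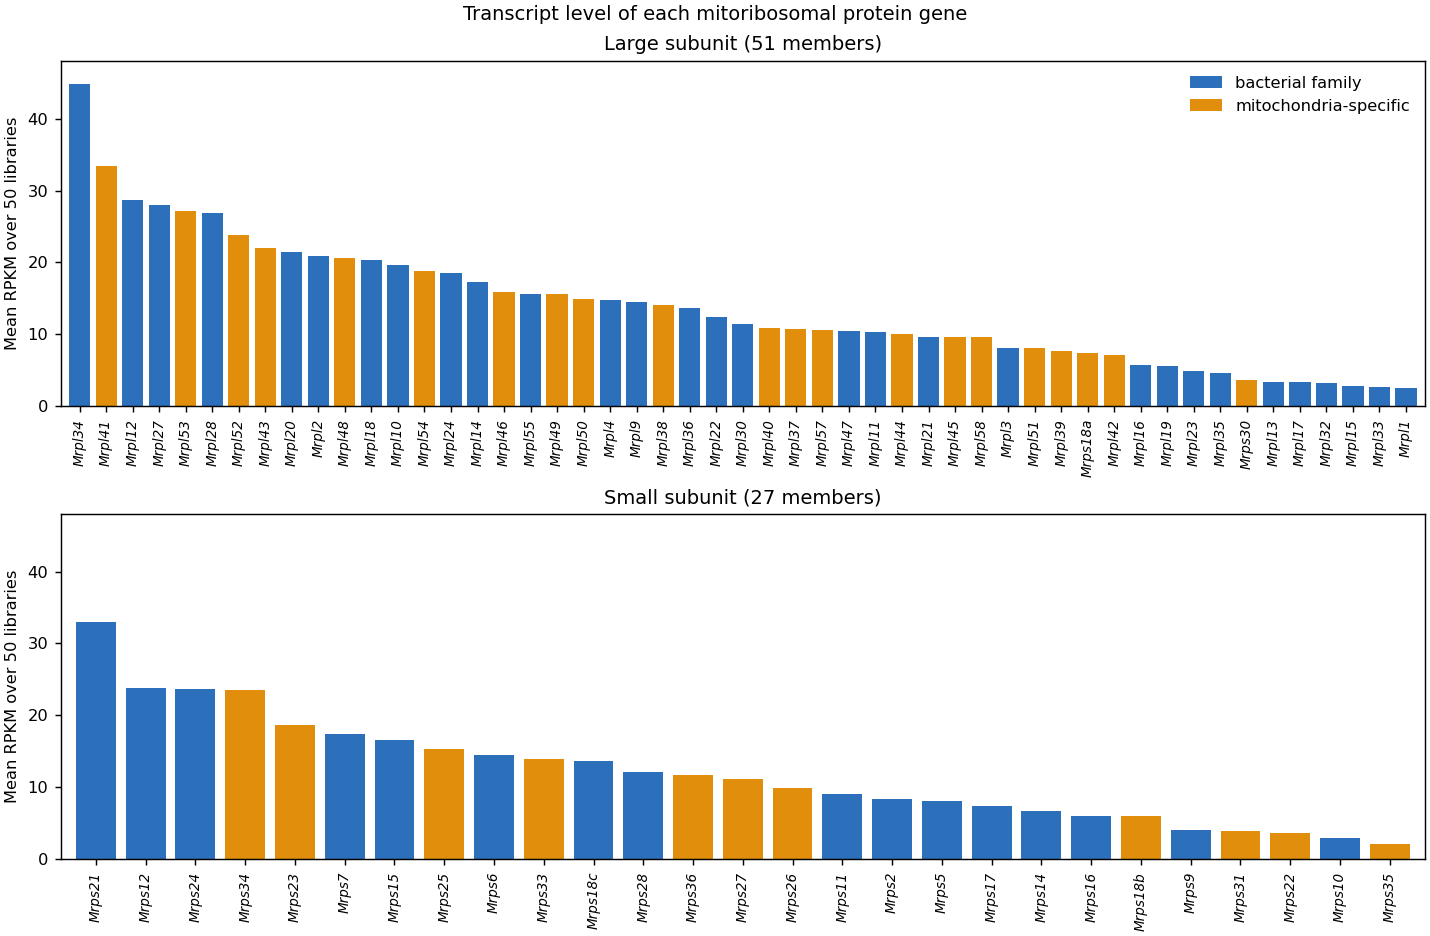
Mean RPKM over all 50 libraries of each large subunit member (top) and small subunit member (bottom), with bars coloured by whether the protein belongs to a bacterial family or is specific to mitochondria. Mrpl34 stands highest at 44.8 RPKM and Mrps35 lowest at 2.12 RPKM.

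Setd1a+/- mice were compared with WT mice across all ages, with age in the model. Of the 78 members, 5 were lower in Setd1a+/- at an adjusted p under 0.05 in edgeR, where 3.75% of the 16330 tested genes were lower, and 0 were higher, where 0.68% were. They are Mrpl36, Mrps17, Mrps10 and Mrpl11, of bacterial families, and Mrpl51, which is specific to mitochondria, so that 3 are large and 2 small subunit proteins. Counted by unadjusted p under 0.05, 22 members were lower and 3 higher, where 9.55% and 4.91% of all tested genes were, and limma-voom and DESeq2 each called 5 lower and 0 higher (4.61% and 5.05% of all genes tested in these fits, either direction). In all, 51 members had a log2 fold change below 0 and 27 above 0, with a median of -0.014 against 0.0012 over all tested genes, and the extremes were -0.15 for Mrpl36 and 0.061 for Mrps22. The members' median lay below 0 under each scaling, at -0.0085 with DESeq2 size factors and -0.021 with library size only, and was -0.0056 without the 3 libraries that stood apart. Over all genes tested in these fits the median was 0.0067, -0.006 and 0.0007 in the same order, so it moved with the scaling too. Without the 3 libraries that stood apart, 4 members were called lower, without Mrpl11 (4.22% of all genes tested in that fit, either direction). Without the 10 E14 libraries 8 were called lower, the same 5 with Mrpl2, Mrpl57 and Mrps16, and 1, Mrps22, was called higher (4.95%). With library size only 7 were called lower, the same 5 with Mrpl57 and Mrps18b (4.76%), and with same-numbered mice as blocks 6, with Mrpl57 and Mrps18b and without Mrpl51 (4.81%). Mrpl2, Mrpl57, Mrps16 and Mrps18b were chosen in this test after their values were seen.

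The count of members called lower changed with single libraries. It was 3 without WT E14 replicate 1, Setd1a+/- E14 replicate 2, Setd1a+/- E14 replicate 4, WT E14 replicate 4, WT E14 replicate 5, Setd1a+/- E18 replicate 4, Setd1a+/- P35 replicate 5 and Setd1a+/- P7 replicate 4 (each left out alone). It was 8 without WT E14 replicate 2 and Setd1a+/- E14 replicate 5 (each left out alone). It was 9 without WT E14 replicate 3 (left out alone). Over all 50 such fits it ran from 3 to 9. The share of all tested genes called in these fits is not given, so the counts do not show whether the members alone or all genes moved.

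Mrpl36, a bacterial family protein of the large subunit, had the largest difference among the members. At E14 Mrpl36 was at 16.3, 14.4, 14.1, 16.5 and 17.7 CPM in the 5 WT libraries and 15.5, 12.9, 15.7, 15.5 and 16.2 CPM in the 5 Setd1a+/- libraries. Setd1a+/- replicate 2 was the lowest of these libraries and the genotypes overlapped. At E18 Mrpl36 was at 15.4, 16.3, 15.3, 16.8 and 14.8 CPM in the 5 WT libraries and 13.5, 15.4, 16, 14 and 15 CPM in the 5 Setd1a+/- libraries. The groups overlapped here too, with WT replicate 4 highest and Setd1a+/- replicate 1 lowest. At P7 Mrpl36 was at 14, 13.9, 15.2, 15.4 and 12.5 CPM in the 5 WT libraries and 11.9, 11.6, 12.5, 12 and 12.5 CPM in the 5 Setd1a+/- libraries. Every Setd1a+/- library lay below 4 of the WT libraries, and only WT replicate 5 fell among them. At P35 Mrpl36 was at 19.2, 18.1, 19.6, 18.1 and 20.1 CPM in the 5 WT libraries and 14.8, 15.5, 17.2, 17.3 and 17.2 CPM in the 5 Setd1a+/- libraries. Here all 5 Setd1a+/- libraries lay below all 5 WT libraries. At P70 Mrpl36 was at 18.7, 20.7, 18.8, 19.5 and 17.8 CPM in the 5 WT libraries and 17.4, 16, 19.3, 17.2 and 14.8 CPM in the 5 Setd1a+/- libraries. Setd1a+/- replicate 3 overlapped the WT group and the other 4 lay below it. Across ages the log2 fold change was -0.15 (SE 0.031, adjusted p = 0.000805) by edgeR, and 23 of the 25 Setd1a+/- libraries lay below the WT median of their age. The call held in each of the 62 fits tried, with log2 fold changes from -0.17 to -0.14 and adjusted p from 0.00019 to 0.00291.

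Mrps17, a small subunit protein of a bacterial family that binds ribosomal RNA, varied least between mice of these 5. At E14 Mrps17 was at 55.6, 60.9, 51.5, 59.1 and 61.6 CPM in the 5 WT libraries and 51.5, 48.7, 54.3, 50.5 and 55 CPM in the 5 Setd1a+/- libraries. WT replicate 3 lay among the Setd1a+/- libraries, and the other 4 WT libraries lay above them all. At E18 Mrps17 was at 48, 56.2, 48.1, 49.3 and 54 CPM in the 5 WT libraries and 47.2, 52.6, 48.3, 46.4 and 45.3 CPM in the 5 Setd1a+/- libraries. The groups overlapped, with 2 WT libraries above every Setd1a+/- library. At P7 Mrps17 was at 40.3, 38.7, 39.8, 41.3 and 38.2 CPM in the 5 WT libraries and 38.7, 38.3, 38.5, 37.3 and 38.7 CPM in the 5 Setd1a+/- libraries. The 2 groups were close, and 3 WT libraries lay above every Setd1a+/- library. At P35 Mrps17 was at 48.8, 50.5, 48.9, 47.9 and 49.8 CPM in the 5 WT libraries and 46.7, 44.6, 45.2, 46 and 43.2 CPM in the 5 Setd1a+/- libraries. All 5 Setd1a+/- libraries lay below all 5 WT libraries. At P70 Mrps17 was at 50.04, 50.3, 57.7, 49.1 and 49.5 CPM in the 5 WT libraries and 48.2, 48, 50.5, 50.8 and 48.7 CPM in the 5 Setd1a+/- libraries. WT replicate 3 stood above all others and the remaining libraries overlapped. The log2 fold change was -0.095 (SE 0.021, adjusted p = 0.00218) by edgeR, and 22 of the 25 Setd1a+/- libraries lay below the WT median of their age. It was called in each of the 62 fits tried, with adjusted p from 0.000312 to 0.021.

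Mrps10 encodes a protein of the small subunit's head and was among the least abundant members per length. At E14 Mrps10 was at 31.7, 29.3, 30.4, 33.5 and 33.6 CPM in the 5 WT libraries and 30.3, 25.5, 29.99, 27.3 and 33.9 CPM in the 5 Setd1a+/- libraries. The groups overlapped, with Setd1a+/- replicate 5 the highest of all and replicate 2 the lowest. At E18 Mrps10 was at 27.2, 25.7, 26.5, 18.6 and 26.9 CPM in the 5 WT libraries and 25.2, 26.7, 23.9, 22 and 28.3 CPM in the 5 Setd1a+/- libraries. WT replicate 4 was the lowest of all and the groups overlapped. At P7 Mrps10 was at 23.5, 24.9, 24.2, 22.4 and 23.4 CPM in the 5 WT libraries and 18.7, 21.4, 19.1, 21.5 and 20.5 CPM in the 5 Setd1a+/- libraries. All 5 Setd1a+/- libraries lay below all 5 WT libraries. At P35 Mrps10 was at 20.1, 21.6, 22.4, 21.5 and 25.3 CPM in the 5 WT libraries and 18.2, 19.5, 19.4, 20.7 and 20.7 CPM in the 5 Setd1a+/- libraries. Setd1a+/- libraries were lower apart from overlap with WT replicate 1. At P70 Mrps10 was at 23.5, 22.1, 22.6, 23.1 and 23.3 CPM in the 5 WT libraries and 19.1, 20.2, 17.8, 21.1 and 22 CPM in the 5 Setd1a+/- libraries. Again all 5 Setd1a+/- libraries lay below all 5 WT libraries, with replicate 5 just under WT replicate 2. Across ages the difference was -0.14 (SE 0.035, adjusted p = 0.0125) by edgeR on the log2 scale, and 22 of the 25 Setd1a+/- libraries lay below the WT median of their age. Mrps10 was called in each of the 62 fits tried, with adjusted p from 0.000357 to 0.0321.

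Mrpl51, a large subunit protein specific to mitochondria, had the smallest difference of the 5. At E14 Mrpl51 was at 40.3, 35.4, 32.5, 39.8 and 39.9 CPM in the 5 WT libraries and 34.8, 30.3, 37.8, 33.8 and 38.1 CPM in the 5 Setd1a+/- libraries. WT replicates 1, 4 and 5 lay above every Setd1a+/- library, and the rest overlapped. At E18 Mrpl51 was at 30.3, 30.8, 31.3, 31.4 and 31.3 CPM in the 5 WT libraries and 29.2, 29.8, 28.8, 28.2 and 28.1 CPM in the 5 Setd1a+/- libraries. Every Setd1a+/- library lay below every WT library. At P7 Mrpl51 was at 29.4, 28.9, 30.6, 31.6 and 31.4 CPM in the 5 WT libraries and 30.7, 30.3, 28.5, 25.9 and 29.7 CPM in the 5 Setd1a+/- libraries. Both groups overlapped, with Setd1a+/- replicate 4 lowest. At P35 Mrpl51 was at 33.3, 32.2, 31.4, 32.7 and 33.5 CPM in the 5 WT libraries and 31, 32.7, 32.4, 31.2 and 30.1 CPM in the 5 Setd1a+/- libraries. The groups overlapped, with 2 WT libraries above every Setd1a+/- library. At P70 Mrpl51 was at 33.2, 36.6, 36.3, 35.4 and 34.9 CPM in the 5 WT libraries and 33.6, 35.1, 34.1, 35.3 and 32.1 CPM in the 5 Setd1a+/- libraries. WT replicates 2, 3 and 4 lay above every Setd1a+/- library, replicate 4 by little, and the rest overlapped. The log2 fold change was -0.076 (SE 0.022, adjusted p = 0.0336) by edgeR, and 23 of the 25 Setd1a+/- libraries lay below the WT median of their age. This call was lost with DESeq2 size factors (log2 fold change -0.071, adjusted p = 0.0515) and with same-numbered mice as blocks (-0.076, adjusted p = 0.0563). Over all fits the adjusted p ran from 0.0112 to 0.0669 and the log2 fold change from -0.083 to -0.065. It was also lost without any one of 15 libraries, with adjusted p of 0.0669 without WT E14 replicate 1, 0.0505 without Setd1a+/- E14 replicate 1, 0.0607 without Setd1a+/- E14 replicate 2, 0.0623 without Setd1a+/- E14 replicate 4, 0.0653 without WT E14 replicate 4, 0.0646 without WT E14 replicate 5, 0.0525 without WT E18 replicate 3, 0.0504 without WT E18 replicate 4, 0.058 without Setd1a+/- E18 replicate 4, 0.0564 without Setd1a+/- E18 replicate 5, 0.0514 without WT P35 replicate 1, 0.0575 without Setd1a+/- P35 replicate 5, 0.0668 without Setd1a+/- P7 replicate 4, 0.0519 without WT P7 replicate 4 and 0.0564 without Setd1a+/- P70 replicate 5.

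Mrpl11 encodes the protein at the base of the stalk that binds translation factors. At E14 Mrpl11 was at 38.8, 34.1, 31.4, 42.7 and 41.4 CPM in the 5 WT libraries and 34.8, 29.2, 37.4, 30.2 and 38 CPM in the 5 Setd1a+/- libraries. WT replicates 1, 4 and 5 lay above every Setd1a+/- library, and Setd1a+/- replicates 2 and 4 below every WT library. At E18 Mrpl11 was at 38.9, 46.8, 38.2, 39.4 and 40.6 CPM in the 5 WT libraries and 38.5, 41.1, 39.4, 36.9 and 39.1 CPM in the 5 Setd1a+/- libraries. WT replicate 2 stood above the other libraries, which overlapped. At P7 Mrpl11 was at 32.2, 32.4, 36.8, 31.4 and 33.3 CPM in the 5 WT libraries and 33.3, 30.4, 31.7, 31 and 31.9 CPM in the 5 Setd1a+/- libraries. WT replicate 3 was highest and the rest of the libraries overlapped. At P35 Mrpl11 was at 29.8, 28.3, 29.7, 29 and 32.1 CPM in the 5 WT libraries and 28.6, 26.8, 29.4, 28.3 and 27.8 CPM in the 5 Setd1a+/- libraries. The groups overlapped, with 3 WT libraries above every Setd1a+/- library. At P70 Mrpl11 was at 29.4, 29.2, 27.4, 33.9 and 32.4 CPM in the 5 WT libraries and 25.1, 27.2, 26.2, 28.6 and 29.8 CPM in the 5 Setd1a+/- libraries. WT replicates 4 and 5 lay above every Setd1a+/- library and the others overlapped. Its log2 fold change was -0.10 (SE 0.031, adjusted p = 0.0374) by edgeR, and 22 of the 25 Setd1a+/- libraries lay below the WT median of their age. Without the 3 libraries that stood apart it was not called (log2 fold change -0.089, adjusted p = 0.097). Over all fits the adjusted p ran from 0.0161 to 0.097 and the log2 fold change from -0.11 to -0.089. Leaving out any one of 19 libraries also ended the call, with adjusted p of 0.0602 without WT E14 replicate 1, 0.0681 without Setd1a+/- E14 replicate 2, 0.0718 without Setd1a+/- E14 replicate 4, 0.0736 without WT E14 replicate 4, 0.0695 without WT E14 replicate 5, 0.0513 without Setd1a+/- E18 replicate 1, 0.0686 without WT E18 replicate 2, 0.0603 without Setd1a+/- E18 replicate 4, 0.0604 without Setd1a+/- P35 replicate 2, 0.0513 without Setd1a+/- P35 replicate 5, 0.0593 without WT P35 replicate 5, 0.052 without Setd1a+/- P7 replicate 2, 0.0551 without Setd1a+/- P7 replicate 4, 0.0613 without WT P7 replicate 3, 0.0624 without Setd1a+/- P70 replicate 1, 0.0517 without Setd1a+/- P70 replicate 2, 0.0572 without Setd1a+/- P70 replicate 3, 0.0729 without WT P70 replicate 4 and 0.0672 without WT P70 replicate 5.

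**Figure D2:**
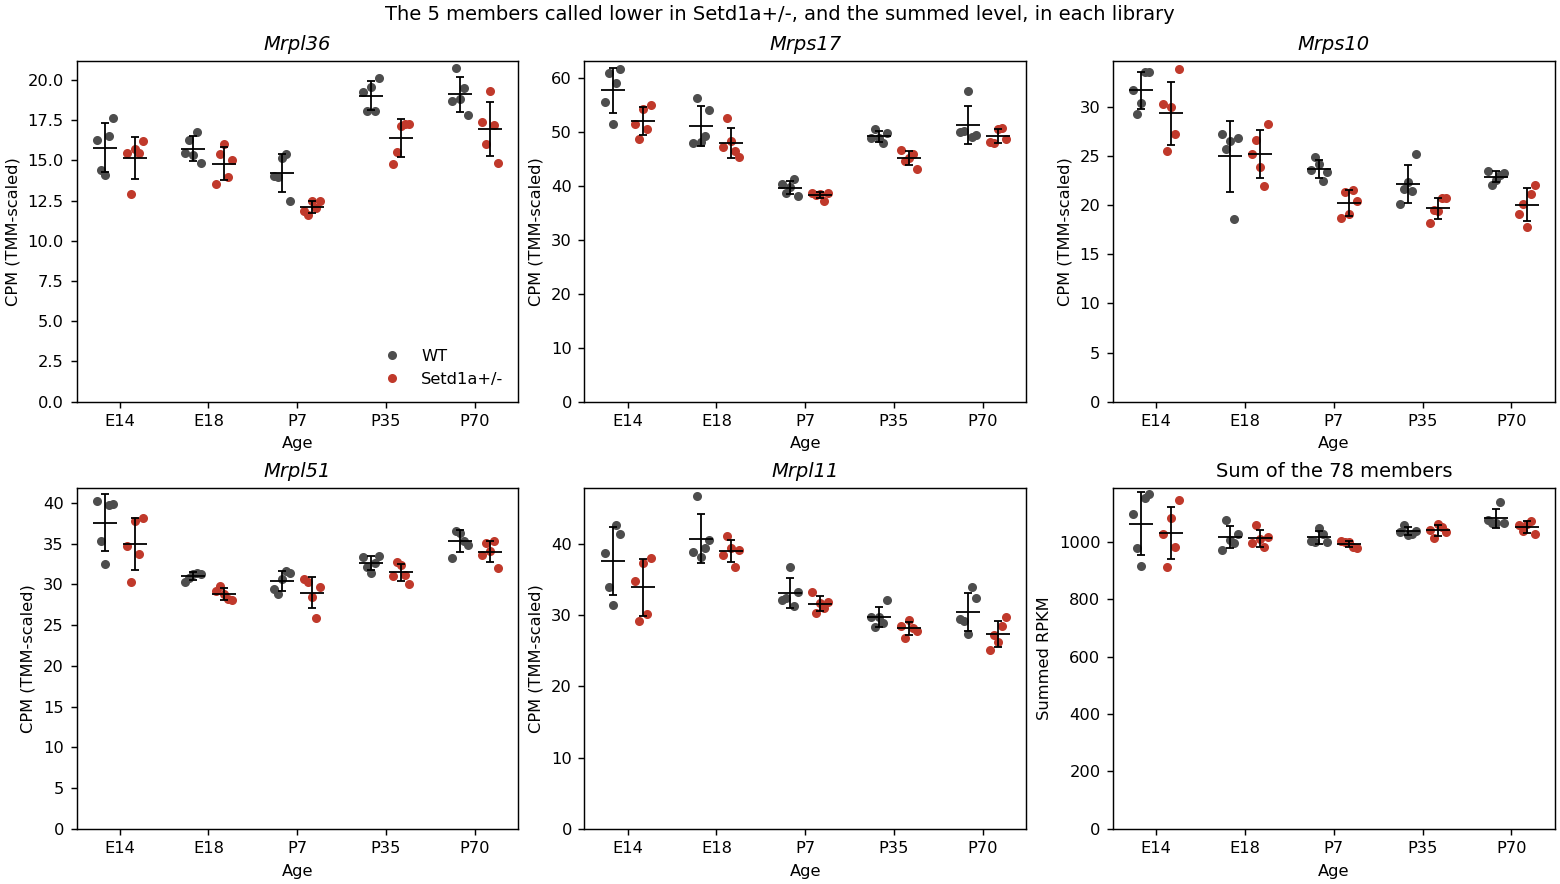
CPM of the 5 members called lower in Setd1a+/- and the summed RPKM of all 78 members, at each age and with axes from 0. Each point is 1 library, the horizontal bars are the means of 5 libraries with error bars of 1 SD, and at P35 every Setd1a+/- library lies below every WT library for Mrpl36 and Mrps17, while the summed level overlaps at each age.

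Among members with higher values in Setd1a+/-, none was called by edgeR with all libraries. The 5 with the smallest p were Mrpl12 of the stalk, Mrps11, Mrps22, Mrpl35 and Mrpl28. Their log2 fold changes were 0.046, 0.057, 0.061, 0.043 and 0.045 in that order, with adjusted p of 0.289, 0.294, 0.311, 0.48 and 0.496. The numbers of Setd1a+/- libraries under the WT median of their age were 11, 5, 6, 8 and 9 of 25. For Mrpl16 the paper reports a genotype difference in protein of isolated synaptosomes, by mass spectrometry over all ages. Its RNA in bulk tissue, a different measure, did not differ at this threshold: its log2 fold change was 0.014 (SE 0.031, adjusted p = 0.914) and 11 of the 25 Setd1a+/- libraries lay below the WT median of their age.

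**Figure D3:**
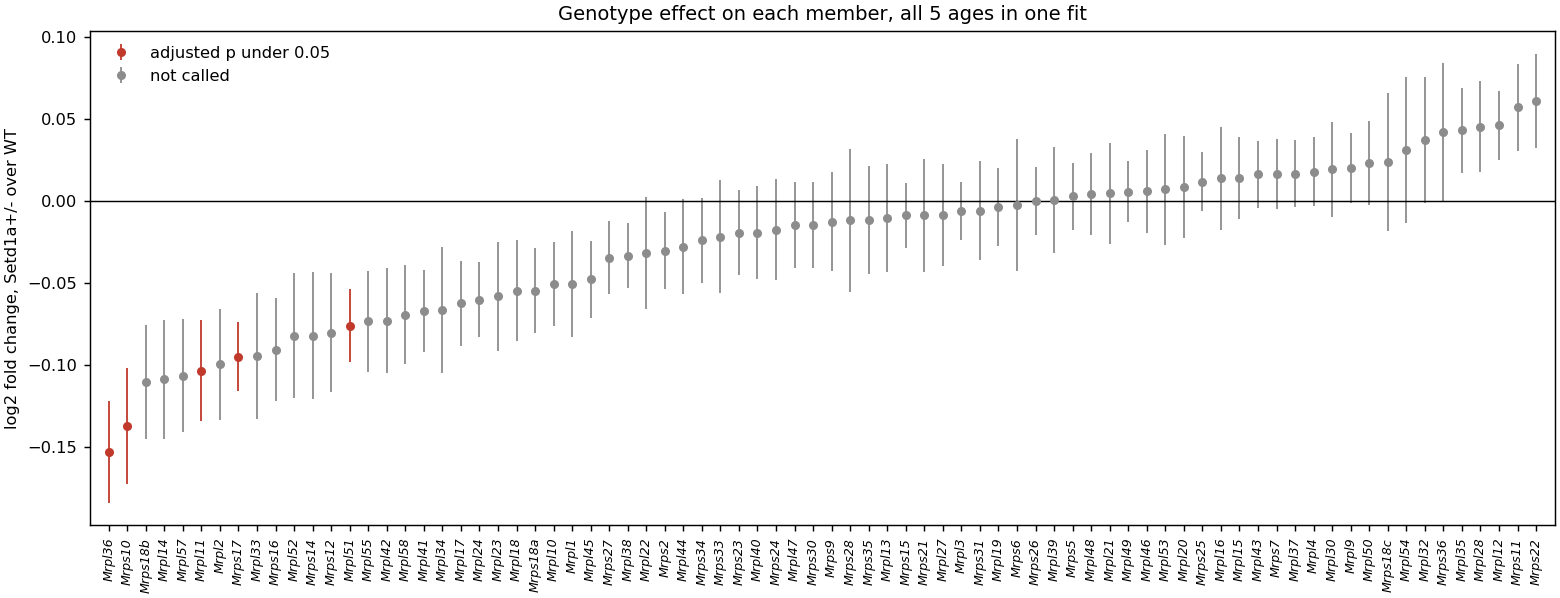
Log2 fold change of Setd1a+/- over WT for each of the 78 members in the edgeR fit with all 5 ages, sorted, with bars of 1 SE. The 5 called members are red and run from -0.15 for Mrpl36 to -0.076 for Mrpl51, and some with larger fold changes than Mrpl51, such as Mrps18b at -0.11, are not called.

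At single ages, 0 members were called by edgeR. The share of all tested genes called was 0.129% in E14 mice, 0.11% in E18 mice, 0.735% in P7 mice, 0% in P35 mice and 0.233% in P70 mice. By unadjusted p under 0.05 there were, in the same order, 9, 3, 6, 3 and 11 members, where all tested genes gave 11.6%, 11.4%, 8.86%, 3.37% and 6.55%. Without the 3 libraries that stood apart edgeR also called 0 members at each age, while the shares called of 16382 tested genes were, in order of age, 7.11%, 1.17%, 0.0549%, 0.0305% and 0.348%, so that the age with the most calls was E14 without these libraries and P7 with them. With DESeq2 the only member called was Mrpl37 at E18 (log2 fold change 0.15), and the shares of all genes tested were 0.699%, 0.68%, 0.785%, 0.0674% and 0.472% in order of age. With limma-voom 0 members were called at any age, and the shares were 0.159%, 0.0612%, 0.098%, 0% and 0.184%. With edgeR and 1 library left out, Mrpl37 was called at E18 without Setd1a+/- E14 replicate 2 (log2 fold change 0.15) and without WT E18 replicate 1 (0.19), Mrps18a at E14 without Setd1a+/- E14 replicate 3 (-0.22) and Mrpl36 at P7 without WT P7 replicate 5 (-0.27). The members' median log2 fold change was -0.042, -0.003, -0.028, -0.0066 and -0.033, against -0.029, 0.017, -0.0037, 0.0048 and 0.0031 over all tested genes, and without the 3 libraries that stood apart it was -0.0033 at E14 and above 0, at 0.013, at E18, against -0.034 and 0.025 over all genes tested in that fit, so that at E14 the members' median lay below that of all genes with all libraries and above it without these 3. By rank of the 5 against 5 libraries, the members with every Setd1a+/- library below every WT library were Mrpl51 at E18, Mrps10 and Mrps16 at P7, Mrpl36 and Mrps17 at P35, and Mrpl14, Mrpl57 and Mrps10 at P70, and Mrpl54 was the reverse at P35. Mrps16, Mrpl14 and Mrpl57 were named here after their values were seen. As counts in order of age these were 0, 1, 2, 2 and 3 of 78 for lower, where all tested genes gave 0.606%, 0.955%, 1.62%, 1.32% and 1.26%, and 0, 0, 0, 1 and 0 for higher, where all tested genes gave 0.178%, 1.26%, 0.612%, 0.925% and 0.539%.

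For an age by genotype interaction, 0 members and 0% of tested genes were called by edgeR, with 2 members and 6.72% of tested genes at an unadjusted p under 0.05. DESeq2 called 0 members and 21 of 16315 tested genes (0.129%), and limma-voom 0 members and 0% of tested genes. Without the 3 libraries that stood apart 0 members and 48 of 16382 tested genes were called, and with same-numbered mice as blocks 0 members and 3 of 16330. The smallest p belonged to Mrpl37, Mrps5 and Mrpl38, with adjusted p of 0.458, 0.664 and 0.811 in edgeR. Mrpl37, a large subunit protein specific to mitochondria, was at 48.4, 43.8, 43.2, 40.5 and 46.3 CPM in the 5 WT libraries and 48.3, 50.3, 50.4, 47.9 and 50.1 CPM in the 5 Setd1a+/- libraries at E18. WT replicate 1 overlapped the Setd1a+/- group and the other 4 WT libraries lay below it. Its log2 fold change of genotype was -0.055, 0.15, -0.02, 0.042 and -0.037 in order of age. For Mrps5, a small subunit protein of a bacterial family, these were -0.067, 0.11, -0.0053, 0.032 and -0.059 in the same order. It was at 55.4, 64, 57.2, 55.3 and 64.9 CPM in the 5 WT libraries and 61.7, 66.7, 62.8, 63.7 and 65.7 CPM in the 5 Setd1a+/- libraries at E18, where WT replicates 2 and 5 lay among the Setd1a+/- libraries and the other 3 WT libraries below them. Mrpl38, specific to mitochondria, was at 43.9, 39.6, 42.3, 43.9 and 41.3 CPM in the 5 WT libraries and 38.3, 39.3, 38.9, 40.4 and 36.5 CPM in the 5 Setd1a+/- libraries at P70, where WT replicate 2 lay among the Setd1a+/- libraries and the other 4 above them, and its log2 fold changes were -0.037, -0.022, -0.035, 0.052 and -0.13.

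Cell type markers were read beside the genotype results. Of 12 marker lists that were tested 10 are described, and in these 0 genes were called by genotype across ages in edgeR, with 3 at an unadjusted p under 0.05, 2 of choroid plexus and 1 of proliferation. At P7, 1 of 4 choroid plexus markers was called lower in Setd1a+/-. The myelin genes Mbp and Mobp were also called lower at P7, with log2 fold changes of -1.47 (SE 0.32, adjusted p = 0.0177) and -3.63 (SE 0.65, adjusted p = 0.00322) in edgeR, as choices made after their values were seen. Mbp was at 74, 681, 73.5, 97.9 and 76.4 CPM in WT and 72.1, 77.4, 71.4, 77.1 and 64.1 CPM in Setd1a+/- libraries and Mobp at 2.51, 90.5, 1.13, 3.67 and 2.74 and 0.825, 1.82, 1.86, 2.22 and 1.496 CPM, with WT replicate 2 far above the rest. Without that library neither was called, at -0.15 and -0.62, and neither was called by limma-voom or with same-numbered mice as blocks. Choroid plexus markers (Ttr, Kl, Folr1, Kcnj13) were at 2.40, 635, 1.73, 2.30 and 2.32 CPM in WT and 2.11, 2.96, 2.44, 2.70 and 3.21 CPM in Setd1a+/- libraries at that age, with Ttr the most abundant in WT and Kl in Setd1a+/- libraries. For this list WT P7 replicate 2 stood far above the other 9 libraries of P7, which overlapped. At E18 the same list was at 3.06, 2.27, 236, 190.4 and 7.39 CPM in WT and 2.74, 1.03, 3.88, 3.37 and 1.89 CPM in Setd1a+/- libraries, with WT replicates 3 and 4 far above the rest, and endothelial markers were at 168, 109, 254, 203 and 112 CPM in WT and 108, 89, 105, 126 and 103 CPM in Setd1a+/- libraries, with WT replicates 1, 3 and 4 above every Setd1a+/- library. At E18, 0 genes of the lists described were called. Their part in the members' values was not tested.

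The promoters of the 5 called members are shown because these members were called lower by genotype across ages. Sequences are from RefSeq on build GRCm38.p6, from 250 bases before to 50 bases after the start, 5′ to 3′ on the gene's strand, and 69 of the 78 members were found by symbol. The others are Mrpl4, Mrpl13, Mrpl15, Mrpl19, Mrpl38, Mrpl54, Mrps28, Mrps34 and Mrps35. Capitals mark matches on either strand to the letters GCGCATGC of the NRF1 motif, CCGGAAGT of the ETS family motif and AAGATGGC of the YY1 motif. The RefSeq starts are not always those of the annotation used for the counts. There Mrpl36 begins at 73328513, Mrps10 at 47368887 and Mrpl51 at 125191801, each before its window. In order the windows lie at chr13:73330759-73331058 (+ strand) for Mrpl36, chr5:129715247-129715546 (+ strand) for Mrps17, chr17:47368947-47369246 (+ strand) for Mrps10, chr6:125191950-125192249 (+ strand) for Mrpl51 and chr19:4962056-4962355 (+ strand) for Mrpl11.
Mrpl36: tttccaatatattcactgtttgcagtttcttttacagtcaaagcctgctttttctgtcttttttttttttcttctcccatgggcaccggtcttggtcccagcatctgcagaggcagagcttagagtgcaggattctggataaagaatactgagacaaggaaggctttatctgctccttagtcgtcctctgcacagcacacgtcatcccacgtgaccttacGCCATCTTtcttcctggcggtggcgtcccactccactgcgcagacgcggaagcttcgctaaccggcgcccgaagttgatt
Mrps17: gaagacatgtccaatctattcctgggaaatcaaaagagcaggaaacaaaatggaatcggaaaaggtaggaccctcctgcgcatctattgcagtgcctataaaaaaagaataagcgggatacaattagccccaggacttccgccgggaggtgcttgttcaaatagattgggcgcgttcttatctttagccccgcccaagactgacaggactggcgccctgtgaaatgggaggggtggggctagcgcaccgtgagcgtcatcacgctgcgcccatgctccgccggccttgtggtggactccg
Mrps10: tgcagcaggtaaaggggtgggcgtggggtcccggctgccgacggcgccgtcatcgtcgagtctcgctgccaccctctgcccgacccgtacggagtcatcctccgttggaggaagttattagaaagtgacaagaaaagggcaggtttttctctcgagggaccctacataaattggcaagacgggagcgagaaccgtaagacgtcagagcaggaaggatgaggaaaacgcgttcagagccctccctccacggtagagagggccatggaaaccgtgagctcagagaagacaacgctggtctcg
Mrpl51: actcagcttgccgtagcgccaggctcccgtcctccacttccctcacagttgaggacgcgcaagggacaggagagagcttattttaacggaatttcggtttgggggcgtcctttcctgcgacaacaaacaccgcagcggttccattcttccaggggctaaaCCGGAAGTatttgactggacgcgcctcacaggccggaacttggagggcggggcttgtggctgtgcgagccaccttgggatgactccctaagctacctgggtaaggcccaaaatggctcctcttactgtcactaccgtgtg
Mrpl11: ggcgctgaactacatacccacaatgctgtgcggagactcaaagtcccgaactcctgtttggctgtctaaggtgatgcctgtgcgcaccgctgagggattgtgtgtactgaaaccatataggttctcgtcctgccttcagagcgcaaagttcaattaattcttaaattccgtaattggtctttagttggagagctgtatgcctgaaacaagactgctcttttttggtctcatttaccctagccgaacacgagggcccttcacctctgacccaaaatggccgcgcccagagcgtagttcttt

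Mrpl36 holds the YY1 letters and Mrpl51 the ETS letters, and none of the 3 was found in these windows of Mrps17, Mrps10 and Mrpl11. Over the 69 members with a promoter, 12 held the YY1 letters (17.4%, against 4.07% of 12495 tested genes with a promoter), 11 the ETS letters (15.9% against 7.07%) and 8 the NRF1 letters (11.6% against 4.81%), and in the same order the letters were in 8.33%, 20% and 3.33% of cytosolic ribosomal protein genes and 21.9%, 3.12% and 9.38% of complex I genes. Any of the 3 was found in 28 members (40.6%), against 14.9% of tested genes with a promoter, 31.7% of cytosolic ribosomal protein genes and 34.4% of complex I genes. A match of letters does not show that a factor binds. In the annotation 18 members (23.1%) were counted as beginning within 1000 bases of a protein-coding gene that starts on the other strand and runs the other way, such as Mrpl51 with Ncapd2 and Mrps12 with Sars2, against 8.78% of tested genes, 10% of cytosolic ribosomal protein genes and 25% of complex I genes. The count leaves out Mrpl46 and Mrps11, which start on opposite strands with overlapping 5′ ends. Other pairs of that kind may be missing from each of these shares. The members lie on 17 chromosomes, with 11 on chromosome 11, 8 on chromosome 17, 7 on chromosome 6 and 6 on chromosome 7.

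Ages were compared within WT mice, and the same comparison in Setd1a+/- mice, which share no mouse with it, is set beside it. From E14 to E18, 9 of the 78 members were called higher and 38 lower in edgeR, where 31.8% of all tested genes were higher and 34.1% lower. From E18 to P7, 21 rose and 20 fell (33.9% of all tested genes were higher and 33.4% lower), and from P7 to P35, 25 rose and 20 fell (32.6% of all tested genes were higher and 34.3% lower). From P35 to P70 edgeR called 0 members (0.533% of tested genes higher and 0.527% lower), with 7 members and 11.3% of tested genes at an unadjusted p under 0.05 and 0 members called by DESeq2 or limma-voom. Over the whole span from E14 to P70, 25 members rose and 28 fell (42.8% of all tested genes were higher and 42.9% lower). The steps were small. The median absolute log2 fold change from E14 to P70 was 0.251 among members and 0.936 among all tested genes, and with a fold change of at least 0.5 also required, 10 members rose and 6 fell (35.4% of all tested genes higher and 33.6% lower). These counts depended on scaling. With library size only the median log2 fold change of all genes was 0.043 from E14 to E18, -0.11 from P7 to P35 and -0.12 from E14 to P70, against -0.011, -0.015 and -0.0019 with TMM. With that scaling 25 fell from E14 to E18, and from P7 to P35 14 rose and 33 fell. Leaving out WT E14 replicate 2 or WT E14 replicate 3 gave 5 and 3 members higher at E18 than E14. For library size only and for these left-out libraries the shares of all tested genes called are not given, so these counts stand without a background. In Setd1a+/- mice, 11 rose and 27 fell from E14 to E18 (32% and 32.5% of all tested genes), 17 rose and 23 fell from E18 to P7 (32.7% and 35% of all tested genes), 29 rose and 16 fell from P7 to P35 (34.5% and 33.3% of all tested genes) and 24 rose and 27 fell from E14 to P70 (42.3% and 43% of all tested genes). From E14 to P70, 22 members rose in both genotypes (88% of those in WT and 91.7% of those in Setd1a+/-) and 25 fell in both (89.3% and 92.6%). From E14 to E18, 7 rose in both (77.8% and 63.6%) and 25 fell in both (65.8% and 92.6%). The same shares over all tested genes are not given, so these are not read as particular to the members.

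In WT mice E14 held the highest mean of 31 members, E18 of 8, P7 of 12, P35 of 3 and P70 of 24, which is 39.7%, 10.3%, 15.4%, 3.85% and 30.8% of members against 36.6%, 9.82%, 15.6%, 15.3% and 22.7% of all tested genes. Summed over the members, the level was 1064 ± 111 RPKM (SD, n = 5) in E14 mice, 1018 ± 39.2 in E18 mice, 1018 ± 22.3 in P7 mice, 1038 ± 14.2 in P35 mice and 1083 ± 32 in P70 mice in WT libraries. In Setd1a+/- libraries, in the same order, it was 1032 ± 89.96, 1014 ± 29.5, 994 ± 11.5, 1041 ± 19.4 and 1053 ± 19.3. Means of neighbouring ages differed by less than the SD at E14. All 5 WT libraries of P70 (1065.4 to 1139.2 RPKM) nevertheless lay above all 5 of P35 (1024.7 to 1060.7 RPKM). In Setd1a+/- libraries these ages overlapped, at 1028.3 to 1075.3 and 1012.9 to 1064.5 RPKM. The ratio of large to small subunit was highest at the embryonic ages, a difference that was not tested. The ratio of their summed RPKM in WT libraries was 2.31 ± 0.035, 2.25 ± 0.026, 2.13 ± 0.047, 2.10 ± 0.053 and 2.08 ± 0.024 in order of age, and it ran from 2.28 at E14 to 2.06 at P70 in Setd1a+/- libraries.

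Among large subunit proteins, Mrpl48, which is specific to mitochondria, rose most. In the annotation Mrpl48 shares 8.69% of its exonic bases with other genes, led by Rab6a. The part of shared fragments in its values was not tested. It was at 77.6, 81.1, 70.1, 77.5 and 70.7 CPM in the 5 WT libraries of E14, 99.2, 103, 105, 106 and 107 in those of E18, 159.7, 149, 171, 163.6 and 158.1 in those of P7, 264, 220.3, 249, 226 and 246 in those of P35 and 263, 250.1, 289, 231 and 255 in those of P70. From E14 to P35 no library of an earlier age reached any library of a later one, and P35 and P70 overlapped. Its log2 fold change was 0.47 (SE 0.058, adjusted p = 2.52e-09) from E14 to E18, 0.62 (SE 0.058, adjusted p = 7.94e-13) from E18 to P7, 0.59 (SE 0.057, adjusted p = 2.42e-12) from P7 to P35 and 1.77 (SE 0.059, adjusted p = 2.1e-29) from E14 to P70 by edgeR, and 1.79 over that span in Setd1a+/- mice. Mrpl16, a core protein of a bacterial family, was at 14.2, 12.3, 13.3, 15.6 and 15.8 CPM at E14 and 22.5, 19, 18.2, 21.3 and 22.4 CPM at P70, with 14.4, 15.2, 15.3, 16 and 14.7 CPM at E18 and 18.9, 19.4, 21.2, 19.9 and 18.9 at P7. Every P70 library lay above every E14 library, and every P7 library above every E18 library. The rise was 0.54 (SE 0.073, adjusted p = 5.46e-09), with 0.38 (SE 0.073, adjusted p = 1.4e-05) between E18 and P7. Mrpl3, also a core protein, was at 46, 46.7, 47.7, 46.3 and 45.1 CPM at P7 and 66.6, 63.8, 69.1, 66.3 and 65.1 CPM at P35, without overlap, a rise of 0.51 (SE 0.04, adjusted p = 3.01e-15).

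Other large subunit members fell. Mrpl52, specific to mitochondria, was at 42, 34.1, 31.2, 40.4 and 39.8 CPM at E14 and 18.5, 18.3, 15.7, 21.1 and 16 CPM at P70 in WT libraries, and at 35.9, 41, 37.7, 37.8 and 42 CPM at E18, 24.3, 26.6, 25, 23.9 and 23.8 at P7 and 16.5, 17.8, 16.6, 15.5 and 15.2 at P35. Its E14 and E18 libraries overlapped, and each lay above all libraries of P7, which lay above those of P35 and P70. The log2 fold change was -1.06 (SE 0.086, adjusted p = 1.82e-15) from E14 to P70, -0.65 (SE 0.084, adjusted p = 5.21e-09) from E18 to P7 and -0.60 (SE 0.086, adjusted p = 5.14e-08) from P7 to P35. Mrpl34, of a bacterial family and the most abundant member per length in the mean over all libraries, was at 39, 33.8, 30.2, 44.7 and 41.4 CPM at E14 and 21, 18.1, 19, 21.2 and 18.9 CPM at P70, with 35.1, 39.99, 37.4, 31.8 and 36 CPM at E18, 26.3, 23.4, 28.3, 27.1 and 26.2 at P7 and 18, 22, 19.1, 19.5 and 17.9 at P35. E14 and E18 overlapped, with WT replicate 3 lowest at E14, and both lay above P7, which lay above P35 and P70. It fell by 0.94 on the log2 scale (SE 0.09, adjusted p = 4.08e-13), with -0.46 (SE 0.089, adjusted p = 1.78e-05) from E18 to P7 and -0.44 (SE 0.09, adjusted p = 3.23e-05) from P7 to P35. Mrpl13, a core protein of a bacterial family, was at 39.9, 32.7, 30.8, 44.6 and 44.5 CPM at E14 and 26.9, 28.8, 27, 26 and 28.4 CPM at E18, and at 23, 22.5, 23.4, 26.3 and 24 CPM at P70. Every E14 library lay above every library of the later ages named. Its fall was -0.49 (SE 0.076, adjusted p = 3.21e-07) from E14 to E18 and -0.69 (SE 0.076, adjusted p = 2.68e-11) to P70.

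Mrpl24, a bacterial family protein at the rim of the exit tunnel, was at 60.8, 57.3, 56.4, 63.1 and 61.3 CPM at E14 and 44.3, 48.3, 44.6, 39.2 and 44.4 CPM at E18. The ages did not overlap, with WT replicate 4 lowest at E18. The log2 fold change was -0.44 (SE 0.051, adjusted p = 5.63e-10). Mrpl18, of a bacterial family, was at 30.2, 33.6, 32.1, 26.9 and 28.4 CPM at E18 and 21.7, 25.2, 21.8, 23.1 and 21.2 CPM at P7, without overlap, and its log2 fold change was -0.42 (SE 0.071, adjusted p = 1.57e-06). Mrpl24 shares 26.3% of its exonic bases with other genes, led by Rrnad1, and Mrpl18 10.1%, led by Tcp1. The part of shared fragments in these values was not tested.

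Among small subunit proteins, Mrps12, which lines the decoding centre, rose most. It was at 19.4, 17.8, 14.5, 19.2 and 19.5 CPM at E14 and 33.3, 34.5, 37.1, 36.5 and 32.2 CPM at P70 in WT libraries, and 15.3, 19.3, 17.9, 19.4 and 16.8 CPM at E18 and 24.2, 22.7, 26.1, 28 and 22.7 at P7. E14 and E18 overlapped, P7 lay above both, and P70 lay above P7. The log2 fold change was 0.94 (SE 0.083, adjusted p = 3.66e-14) from E14 to P70 and 0.48 (SE 0.083, adjusted p = 2.55e-06) from E18 to P7. Mrps36, which is also described as a subunit of the 2-oxoglutarate dehydrogenase complex and not of the ribosome, was at 9.71, 9.01, 7.84, 12.3 and 11.2 CPM at E14 and 17.7, 15.7, 17.5, 19.9 and 17.6 CPM at P70, and at 14.2, 16.2, 12.9, 12.2 and 13.9 CPM at E18. All P70 libraries lay above all E14 libraries, while E14 replicate 4 reached the lowest E18 library. It rose by 0.82 (SE 0.098, adjusted p = 2.09e-10) from E14 to P70 and 0.47 (SE 0.097, adjusted p = 4.6e-05) from E14 to E18 on the log2 scale. Mrps14, a head protein of a bacterial family, was at 15.6, 17, 15.1, 17.2 and 14.7 CPM at P7 and 26.7, 27.4, 25.8, 29.5 and 29.8 CPM at P35. The ages did not overlap. Its rise of 0.80 (SE 0.089, adjusted p = 9.41e-11) was the largest between neighbouring ages among the members.

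Mrps6, of a bacterial family, was at 24.1, 19.9, 17.6, 27.6 and 24.1 CPM at E14, 25.9, 27.9, 23.8, 27.1 and 29.1 at E18, 23.1, 27.8, 26.9, 26.6 and 24.2 at P7 and 18.7, 20.8, 16.7, 15.1 and 15.6 at P35. E14 and E18 overlapped, with WT E14 replicate 3 lowest, and every P35 library lay below every P7 library. Its log2 fold change was 0.24 (SE 0.092, adjusted p = 0.0207) from E14 to E18 and -0.57 (SE 0.093, adjusted p = 7.76e-07) from P7 to P35. The first call was lost without WT E14 replicate 2 (log2 fold change 0.20), WT E14 replicate 3 (0.16) or WT E18 replicate 5 (0.21). Mrps6 shares 19.9% of its exonic bases with other genes, led by Gm49711. Mrps9, a small subunit protein of a bacterial family, was at 29, 24.2, 27.4, 27 and 28.6 CPM at E14 and 21.3, 21.6, 21.6, 18.1 and 22.3 CPM at E18. The ages did not overlap, and WT E18 replicate 4 was lowest. The fall was -0.38 (SE 0.068, adjusted p = 4.97e-06).

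Of the paralogs Mrps18a, Mrps18b and Mrps18c, Mrps18c is counted here with the bacterial family and the others as specific to mitochondria, and the protein of Mrps18a sits in the large subunit. Mrps18a was at 23.3, 21.9, 21.6, 25.1 and 23.5 CPM at E14 and 31.7, 33.7, 31.7, 35.5 and 32 CPM at P70, without overlap, and rose by 0.51 (SE 0.056, adjusted p = 1.97e-11). Mrps18b was at 11.8, 11.3, 11.3, 12.5 and 13.7 CPM at E14 and 12.1, 12.4, 11, 14.4 and 13.6 CPM at P70, with overlap. It was not called, with a log2 fold change of 0.068 (SE 0.078, adjusted p = 0.413), and its sign was reversed with library size only (-0.049), while it was called higher with a filter of 10 CPM (0.16) and in Setd1a+/- mice (0.21). Mrps18c was at 15.7, 12, 11.6, 16.5 and 16.9 CPM at E14 and 14.9, 14.7, 15, 14.1 and 13.6 CPM at P70, also with overlap, and was not called, with a log2 fold change of -0.0091 (SE 0.097, adjusted p = 0.931), and its sign turned with other scalings, filters and single libraries. Per length the means over all libraries were 7.47 RPKM for Mrps18a, 5.96 for Mrps18b and 13.6 for Mrps18c. Mrps18b and Mrps18c share 30.5% and 23.2% of their exonic bases with other genes, led by Gm16279 and Gm43511.

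**Figure D4:**
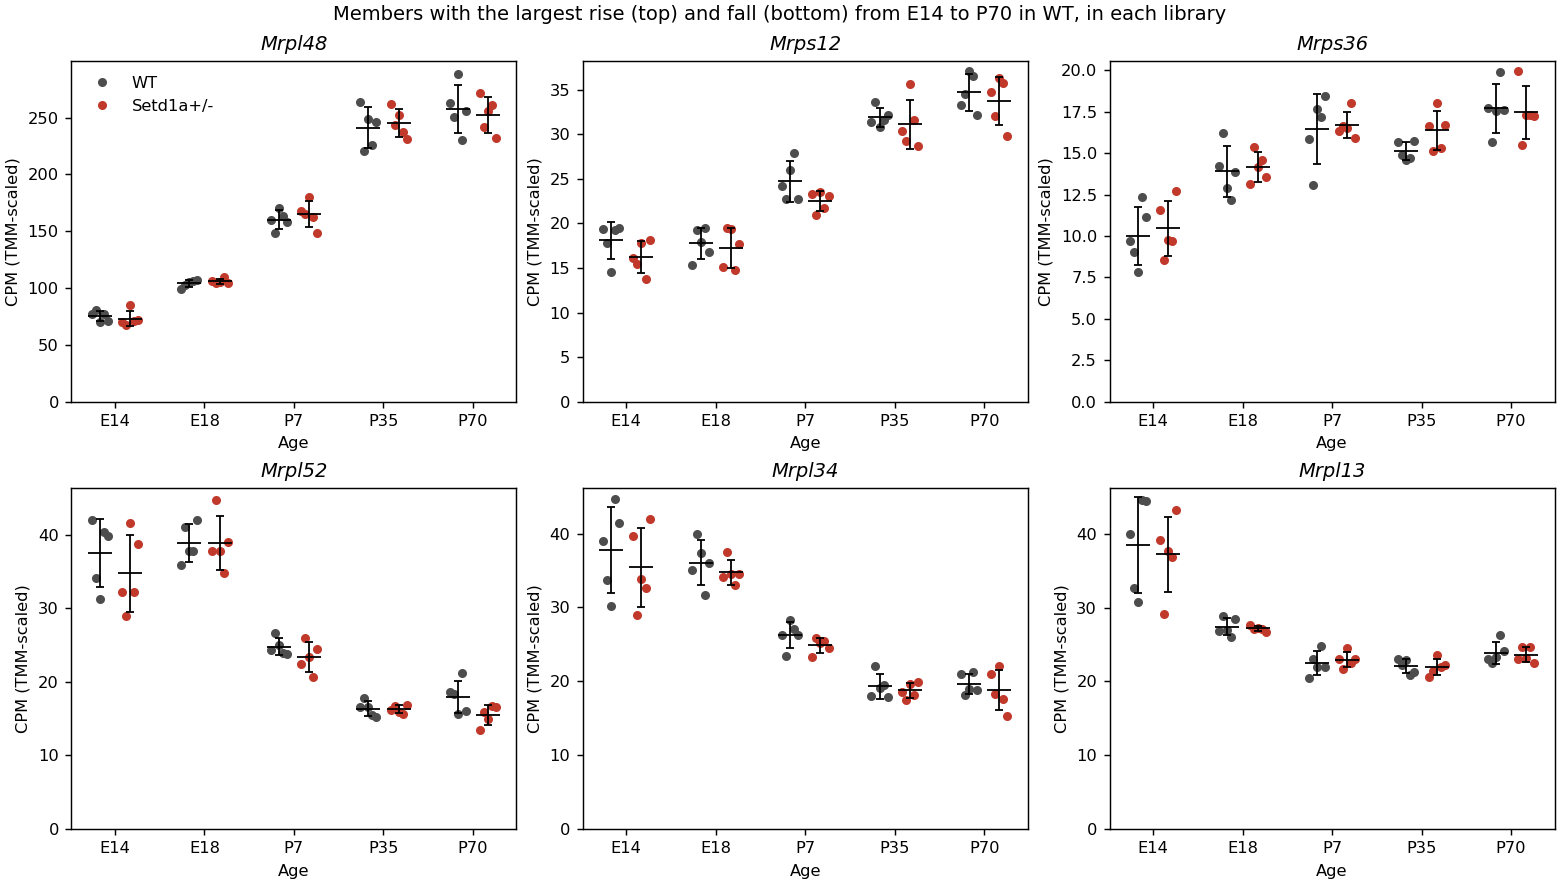
CPM of the 3 members with the largest rise (Mrpl48, Mrps12, Mrps36) and the 3 with the largest fall (Mrpl52, Mrpl34, Mrpl13) from E14 to P70 in WT, at each age in both genotypes, with a point per library, means of 5 libraries as bars and error bars of 1 SD. Mrpl48 goes from 75.4 ± 4.79 to 258 ± 21.1 CPM (SD, n = 5) and Mrpl52 from 37.5 ± 4.61 to 17.9 ± 2.21 CPM in WT. Mrpl48 shares 8.69% of its exonic bases with other genes, led by Rab6a.

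Sorted by role, the members' changes from E14 to P70 in WT ran in both directions. Of all tested genes 42.8% were higher and 42.9% lower. Among large subunit members 9 rose and 14 fell of 30 bacterial family proteins (median log2 fold change -0.12) and 7 rose and 5 fell of 21 proteins specific to mitochondria (median log2 fold change 0.052). Among small subunit members 4 rose and 7 fell of 16 bacterial family proteins (median log2 fold change -0.13) and 5 rose and 2 fell of 11 specific ones (median log2 fold change 0.068). With library size only all 78 members had a median of -0.14 against -0.025 with TMM and 0.02 with DESeq2 size factors, and it was 0.011 without the 3 libraries that stood apart, 0.069 with a filter of 10 CPM and 0.0089 with all annotated genes, so that its sign depended on scaling, on these libraries and on the genes kept. The medians by role were computed with TMM only. Cytosolic ribosomal protein genes moved one way, with 0 risen and 78 fallen of 80 (median log2 fold change -1.17), and complex I genes the other, with 34 risen and 0 fallen of 36 (median log2 fold change 0.70). The 5 mitoribosomal proteins with another kind of symbol (Dap3, Chchd1, Ptcd3, Aurkaip1, Gadd45gip1) split likewise, with 2 risen and 2 fallen by TMM. Aurkaip1 changed by 0.75, Gadd45gip1 by 0.14, Chchd1 by -0.69 and Ptcd3 by -0.65 on the log2 scale. The call of Gadd45gip1 was lost with library size only (0.015) and without WT E14 replicate 1 (0.11), WT E14 replicate 2 (0.10), WT E14 replicate 3 (0.093) or WT P70 replicate 4 (0.10). None of the 5 was called by genotype in edgeR, with 0 at an unadjusted p under 0.05.

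Factors that serve the mitochondrial ribosome were read as 2 further lists. Of 16 translation factors, 4 rose and 10 fell from E14 to P70 in WT (median log2 fold change -0.37), where 42.8% of all tested genes were higher and 42.9% lower. The elongation factor Gfm1 changed by 0.51 and Gfm2, which acts in ribosome recycling, by 0.74, while the initiation factor Mtif2 changed by -0.77 and Guf1 by -0.85. Of 27 assembly factors, 6 rose and 15 fell (median log2 fold change -0.37), with -1.77 for Malsu1, which binds the immature large subunit, -1.49 for the GTPase Gtpbp10, 1.00 for the ribosomal RNA methyltransferase Mrm1 and 0.60 for the GTPase Mtg1. By genotype across ages, the release factor Mtrf1 was lower in Setd1a+/- with a log2 fold change of -0.25 (SE 0.058, adjusted p = 0.00529), Taco1, an activator of Cox1 translation, with -0.13 (SE 0.03, adjusted p = 0.00332), Mtg1 with -0.15 (SE 0.033, adjusted p = 0.00286) and Mpv17l2 with -0.13 (SE 0.034, adjusted p = 0.0153), and Lrpprc, which stabilizes mitochondrial messenger RNA, was higher with 0.058 (SE 0.017, adjusted p = 0.0326) in edgeR. Setd1a+/- libraries below the WT median of their age numbered 23, 19, 23 and 22 of 25 for the first 4, and 20 of 25 lay above it for Lrpprc. Mpv17l2 was not called without the 3 libraries that stood apart (log2 fold change -0.093), nor Lrpprc with no filter on low counts (0.057) or without WT P35 replicate 4 (0.053) or Setd1a+/- P7 replicate 3 (0.054). At P7 alone Gfm1 was called, with a log2 fold change of -0.16 (adjusted p = 0.0435), with 42.8, 46.7, 44.2, 41.1 and 39.7 CPM in WT and 39.5, 39.7, 36.7, 37.2 and 39.1 CPM in Setd1a+/- libraries, where the highest Setd1a+/- library was level with the lowest WT library. Gfm1 was not called at P7 without the 3 libraries that stood apart (log2 fold change -0.12), and, that fit included, it was called in 5 of 11 alternative fits and in 31 of 50 fits with 1 library left out, with adjusted p from 0.01 to 0.511. Across ages that is 2 lower and 1 higher of 16 translation factors and 2 lower and 0 higher of 27 assembly factors, where 6 assembly factors had an unadjusted p under 0.05. Among cytosolic ribosomal protein genes 1 of 80 was higher and 0 were lower, with 12 below 0.05 by unadjusted p, and among complex I genes 7 of 36 were lower and 0 higher, with 16 below 0.05 by unadjusted p. Of all tested genes 3.75% were called lower and 0.68% higher, and 9.55% were lower and 4.91% higher at an unadjusted p under 0.05.

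**Figure D5:**
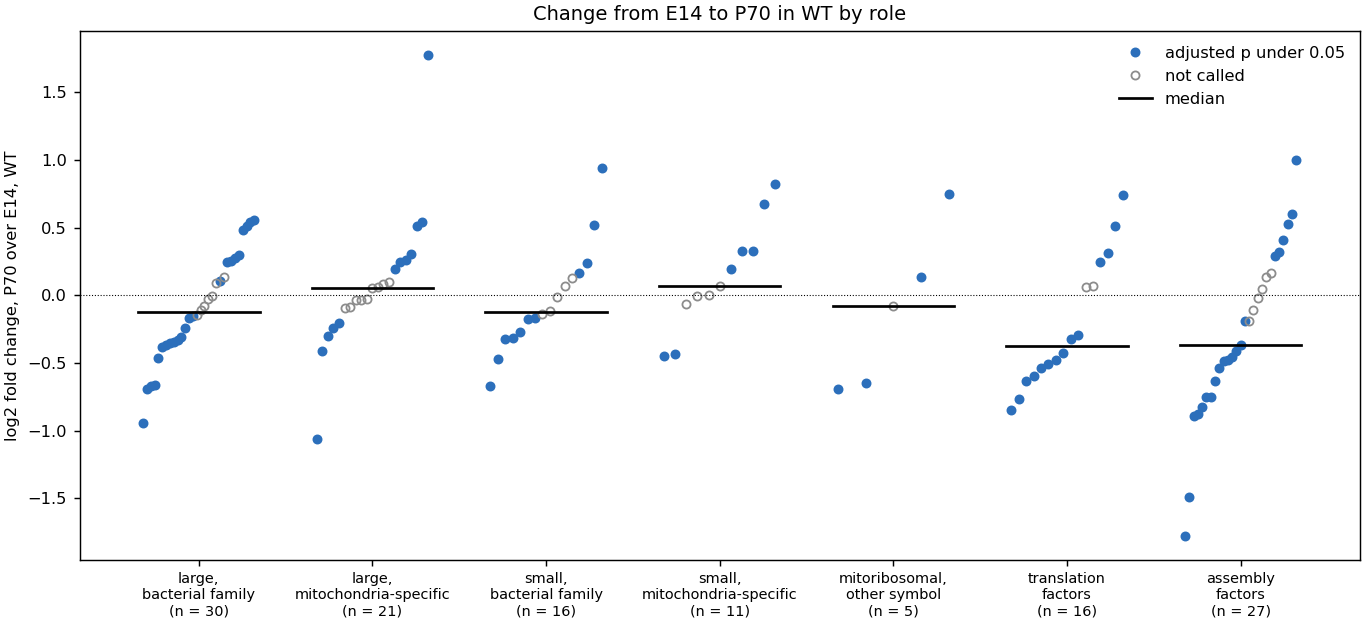
Log2 fold change from E14 to P70 in WT for the members by subunit and origin and for the other lists of mitochondrial translation genes, 1 point per gene in order of value, filled where the adjusted p was under 0.05, with a horizontal line at each median. Members of each role lie on both sides of 0, with Mrpl48 at 1.77 and Mrpl52 at -1.06 farthest out, and with library size only the median of all tested genes was -0.12.

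The tissue itself changed between these ages. Summed over each list, with SD over 5 WT libraries at E14 and at P70, the CPM went for neuron markers from 1640.4 ± 199 to 4178 ± 175 CPM (most abundant Tubb3 and Snap25) and striatum markers from 59.96 ± 9.59 to 499.7 ± 191 CPM (most abundant Ppp1r1b). In the same way it went for progenitor markers from 515 ± 90.1 to 64.4 ± 8.76 CPM (most abundant Sox2), proliferation markers from 1191 ± 239 to 51.8 ± 2.96 CPM (most abundant Top2a and Pcna), erythroid markers from 503 ± 318 to 129 ± 51.2 CPM (most abundant Hbb-bs) and choroid plexus markers from 199 ± 182 to 4.68 ± 2.71 CPM (most abundant Ttr and Kl). For glia and vessels it went for oligodendrocyte precursor markers from 27.6 ± 3.99 to 60.2 ± 3.67 CPM (most abundant Pdgfra) and astrocyte markers from 63.8 ± 18.5 to 385 ± 22.6 CPM (most abundant Gja1), and for microglia markers from 38.8 ± 4.07 to 182 ± 4.805 CPM (most abundant Csf1r) and endothelial markers from 73.2 ± 9.81 to 144 ± 8.32 CPM (most abundant Cldn5 and Flt1). Genes risen and fallen from E14 to P70 numbered 3 and 1 of 4 for neuron, 0 and 4 of 4 for progenitor, 0 and 7 of 7 for proliferation, 2 and 0 of 2 for oligodendrocyte precursor, 4 and 0 of 4 for astrocyte, 4 and 0 of 4 for microglia, 1 and 0 of 3 for endothelial, 0 and 5 of 5 for erythroid, 1 and 2 of 4 for choroid plexus and 4 and 0 of 4 for striatum markers. Mbp rose from E14 to P70 with a log2 fold change of 6.21 (SE 0.40). Hindbrain markers (Hoxa2, Hoxb3, Hoxb4, Hoxc4) did not pass the filter and summed to at most 8.01 CPM in any library. The part of cell composition in the members' changes with age was not tested.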

How the data were processed

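RNA of 50 mouse frontal cortex samples, 1 mouse each, was sequenced by the authors as polyadenylated RNA in 150 bp pairs, trimmed with Trimmomatic, checked with FastQC, aligned to GRCm38 with STAR and counted by featureCounts 1.4.6-p2 on Ensembl exons. The deposited values are raw counts of fragments per gene for 55487 genes in each library, without regard to strand, and a fragment in several genes counted for each.

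Of these genes, 55141 were found in GENCODE vM21 by identifier, and 16330 protein-coding genes passed filterByExpr (at least 10 counts at the median library size in 5 libraries) and were tested with edgeR 4.0.16 in R 4.3.3, with TMM scaling and quasi-likelihood F tests. The genotype test had age as a factor in the model. Tests at each age, between ages and of the interaction (4 terms) used a fit of the 10 groups of 5 mice, which shares 1 estimate of the spread. The p values are two-sided and were adjusted by Benjamini and Hochberg over all tested genes, with calls at an adjusted p under 0.05. The SE is the absolute log2 fold change over the root of F. CPM and RPKM use TMM library sizes (marker sums the plain library sizes), RPKM the summed exon length, and log2 values a prior count of 2. The procedure was tested on simulated data. Tables were made with Python 3.11.15 and pandas 2.3.3, figures with matplotlib 3.10.9.

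The members and the lists were chosen with earlier results of these data known. Named members are those called by genotype, the 5 with the smallest genotype p in each direction, the 3 with the smallest interaction p, the 3 largest called rises and falls of each age step, the 5 highest and lowest by RPKM, the 3 most variable, and Mrpl16 and the Mrps18 paralogs by name; names outside this rule are said to be chosen after their values were seen.

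The lists are 16 mitochondrial translation factors, 27 mitoribosome assembly factors, 5 mitoribosomal proteins with another kind of symbol, 80 cytosolic ribosomal protein genes, 36 nuclear complex I genes and 11 lists of cell type or tissue markers, with 2 further marker lists not described. Alternatives were DESeq2 size factors, library size only, DESeq2 1.42.0, limma-voom (limma 3.58.1), no filter, filters at 1 CPM and 10 CPM in 5 libraries, all annotated genes, a covariate for RNA integrity, same-numbered mice as blocks, an adjusted p under 0.01, an absolute log2 fold change of 0.5 or more, Setd1a+/- in place of WT mice, members with under 10% exon overlap, and leaving out each library or the 3 that stood apart. Leaving out the 10 E14 libraries was added after seeing the data. All 50 libraries were kept. Genes absent from the annotation and genes that are not protein-coding were left out. Depth sets the counting error, which is largest for the members with the fewest counts.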

Additional observations from a re-analysis of the deposited data

Results flagged for a closer look

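The 24 members given library by library and the summed level were searched in the 10 groups for a library far from the other 4 by Dixon's test. Of 250 sets of 5 libraries, 13 held one, and chance alone gives about 1 in 20. A low library and its nearest neighbour were Mrpl36 in Setd1a+/- E14 replicate 2 at 12.9 CPM against 15.5 CPM, Mrps17 in Setd1a+/- P7 replicate 4 at 37.3 CPM against 38.3 CPM, Mrps10 in WT E18 replicate 4 at 18.6 CPM against 25.7 CPM, Mrps18a in Setd1a+/- P70 replicate 5 at 29.1 CPM against 31.3 CPM, Mrps18b in Setd1a+/- P7 replicate 1 at 12 CPM against 13.2 CPM, Mrpl3 in Setd1a+/- E14 replicate 2 at 41.3 CPM against 47.4 CPM and Mrps9 in WT E18 replicate 4 at 18.1 CPM against 21.3 CPM. A high library and its nearest neighbour were Mrps17 in WT P70 replicate 3 at 57.7 CPM against 50.3 CPM, Mrpl48 in Setd1a+/- E14 replicate 3 at 84.8 CPM against 71.9 CPM, Mrps14 in WT P70 replicate 4 at 33.5 CPM against 29.5 CPM, Mrps18c in WT P35 replicate 5 at 16.4 CPM against 13.9 CPM and Mrps5 in WT P7 replicate 2 at 50 CPM against 46 CPM. The summed level of the 78 members in WT P70 replicate 4 was 1139 RPKM against 1077 RPKM. WT E18 replicate 4 was low for both Mrps10 and Mrps9, and Setd1a+/- E14 replicate 2 for both Mrpl36 and Mrpl3. No cause was tested.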

How the results depend on the processing

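Of 56 log2 fold changes named by gene, 46 kept their direction and side of the threshold under every alternative tried, over 64 settings, not all of which apply to each value, with 50 of them leaving out 1 library each, and 2 reversed under at least 1. Over these values and settings, 3416 were the same, 56 lost and 3 gained a call, and 12 reversed. Values at single ages and values named after they were seen are not among these 56, and calls among those, such as Gfm1, Mbp and Mobp at P7, Mrpl37 at E18 and Mrps18b by genotype across ages, differed between fits. The change of Mrps18b from E14 to P70, not called, reversed to -0.049 with library size only. That of Mrps18c, not called, reversed to 0.036 with DESeq2 size factors, 0.036 with DESeq2, 0.0076 with limma-voom, 0.0016 with a filter of 1 CPM, 0.084 with a filter of 10 CPM, 0.024 with all annotated genes and 0.046 without the 3 libraries that stand apart, and ran from -0.086 to 0.046 with single libraries left out. Counts of members lower by genotype were 8 without the 10 E14 libraries, an alternative chosen after seeing the data, and 2 at an adjusted p under 0.01, and ran from 3 to 9 with single libraries left out. Without the E14 libraries 1 was called higher. At E18 DESeq2 called 1 member, and single libraries left out gave 0 to 1 at E14, E18 and P7. From E14 to E18 in WT, 4 rose at an adjusted p under 0.01 and 0 with an absolute log2 fold change of 0.5 or more, with 3 to 11 on leaving out single libraries, and 25 fell with library size only and 0 with the fold change rule. That rule gave 1 up and 1 down from E18 to P7, 3 and 2 from P7 to P35, and 10 and 6 from E14 to P70. Under it, the share of all tested genes is given for E14 to P70 only (35.4% higher and 33.6% lower). Counts for the other steps, at an adjusted p under 0.01 and for single libraries left out stand without such a share. With library size only 14 rose and 33 fell from P7 to P35. The cause was not tested beyond the shift of all genes given for that scaling. The 5 members called by genotype have under 10% exon overlap, so leaving out members of 10% or more could not change that count. Mice of the same number and age in both genotypes do not appear to be pairs: of 25, 7 correlated best with their own number, with r from -0.204 to 0.46.

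Each library held 35507165 counts or more, and counting error weighs most on Mrps28, with a mean of 371 counts. With 5 mice per group, a difference not called is not shown to be absent. Bulk RNA from a fraction of a homogenate gives no protein levels and no mitochondrial translation. The paper's methods name frontal brain regions for the embryos and frontal cortex for the postnatal mice, so ages may differ in region as well as in time. Fragments counted for each gene they overlap can add counts of neighbours to any member whose exons overlap another gene, by 10% or more of exon length in 17 members and by 8.69%, with Rab6a, in Mrpl48. Marker RNA in WT P7 replicate 2 and Xist in 2 WT libraries may bear on WT values.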
